A study of Mus musculus with 6 samples.

Results

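Interferon-inducible genes were followed in sorted bone marrow cells of mice labelled Zeb2-KO and of wild-type (WT) mice, all of which had been given polyinosinic-polycytidylic acid (pIC). They were taken by name, as array probe sets with exactly 1 gene symbol of the families Ifi (with Ifit and Ifitm), Isg, Oas, Mx, Irf, Gbp, Iigp, Irgm and Trim30, the ADP-ribosyltransferases Parp9 and Parp10 to Parp14, or one of the single genes Rsad2, Usp18, Bst2, Xaf1, Rtp4, Cmpk2, Dhx58 and Zbp1, with 1 probe set per gene. This gave 48 genes, from 51 probe sets, of 10366 genes measured with a single symbol. The rule used no measured difference between groups. Of the 48 genes, 28 had a mean log2 intensity at or above the median of all probe sets (6.63) and 20 lay below it. Among the latter were Irf4, Irf7, Irf8, the Ifit genes, Ifi30, Isg20l2, Rsad2, Gbp4 and Ifi214. Mx1, Mx2, Isg15, Stat2, Ifnar1 and Ly6a were not analysed here. Irf2bp1, Irf2bp2, Irf2bpl and Isg20l2 match the rule by name only and are not known as interferon targets.

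The cells were LKS-Slam cells, a lineage-negative, Kit- and Sca-1-positive fraction gated on SLAM surface proteins and rich in hematopoietic stem cells. Mice labelled Zeb2-KO were Zeb2 fl/fl and bore Mx1-Cre, in which the interferon-responsive Mx1 promoter drives the recombinase, and their genotype is given as deleted for Zeb2. The WT group was of the C57Bl/6 strain and no Cre transgene is listed for it. Both groups received pIC and were killed at 14 weeks of age, 8 weeks after it, and each comprised 3 arrays, 1 per bone marrow sample, named as separate biological replicates. There was no group without pIC, so induction by pIC itself cannot be measured here, and the Cre transgene, any difference in strain background and the loss of Zeb2 cannot be told apart.

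pIC imitates double-stranded viral RNA. It is sensed by Tlr3 in endosomes and by the cytosolic helicase Ifih1 (MDA5), and the type I interferons made in response bind Ifnar1 and Ifnar2. The kinases Jak1 and Tyk2 then act on a transcription factor complex that holds Irf9 and binds the interferon-stimulated response element (ISRE) of target promoters, whereas interferon gamma acts mainly through the gamma-activated sequence (GAS). In the marrow, a pulse of type I interferon is known to bring dormant stem cells into cycle for a short time.

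The promoters of the genes carried the ISRE letters far more often than the promoters of all genes. Promoter windows of 250 bases before to 50 bases after the transcription start (RefSeq, assembly GRCm38.p6) were found for 38 of the 48 genes. The ISRE was searched as GAAANNGAAA and the GAS as TTCNNNGAA, on both strands, with overlapping matches allowed. At least 1 ISRE match stood in a window of 18 of the 38 genes (47.4%), against 1079 of 27025 genes in the whole table (4.0%). GAS matches stood in 13 of the 38 (34.2%), against 2582 of the 27025 (9.6%). In the 250 bases before the start alone the ISRE shares were 44.7% of the members and 3.5% of all genes, and the GAS shares 28.9% and 8.1%. The 4 sequences that follow are examples, each given as the 250 bases before the start, 5′ to 3′ on the gene's strand, with ISRE matches in capitals. They are the ISRE-holding genes with the lowest difference between groups (Ifit3), the highest (Irgm1) and the one closest to 0 (Rsad2), and Ifit1, which neighbours Ifit3 and shares its kind of promoter.
Ifit3 (chr19:34583279-34583528, plus strand): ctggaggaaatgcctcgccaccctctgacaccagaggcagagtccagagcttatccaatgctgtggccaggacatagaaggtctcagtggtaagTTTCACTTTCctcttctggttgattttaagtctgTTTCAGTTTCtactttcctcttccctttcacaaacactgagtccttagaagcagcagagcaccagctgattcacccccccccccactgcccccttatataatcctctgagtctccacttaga
Irgm1 (chr11:48871421-48871670, minus strand): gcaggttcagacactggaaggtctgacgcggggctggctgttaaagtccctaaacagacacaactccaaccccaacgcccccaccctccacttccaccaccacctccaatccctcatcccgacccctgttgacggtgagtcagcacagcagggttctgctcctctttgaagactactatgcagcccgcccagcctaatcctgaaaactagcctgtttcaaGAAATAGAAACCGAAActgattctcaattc
Rsad2 (chr12:26456453-26456702, minus strand): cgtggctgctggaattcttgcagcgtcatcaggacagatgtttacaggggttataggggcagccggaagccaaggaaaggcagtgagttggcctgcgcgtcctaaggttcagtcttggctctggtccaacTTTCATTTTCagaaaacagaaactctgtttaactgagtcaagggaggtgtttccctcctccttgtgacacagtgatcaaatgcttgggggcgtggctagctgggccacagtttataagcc
Ifit1 (chr19:34640639-34640888, plus strand): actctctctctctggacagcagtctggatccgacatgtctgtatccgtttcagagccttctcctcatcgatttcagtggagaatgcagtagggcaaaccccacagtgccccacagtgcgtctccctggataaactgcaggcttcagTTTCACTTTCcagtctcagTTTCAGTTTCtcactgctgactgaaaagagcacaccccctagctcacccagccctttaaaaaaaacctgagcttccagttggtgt
The matches begin 156 and 122 bases before the start in Ifit3, 104 and 85 bases before it in Ifit1 and 120 bases before it in Rsad2. In Irgm1 they begin 30 and 24 bases before the start and overlap each other. A match describes these letters and was not tested as a binding site.

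Some features of the arrays touch every result below. Zeb2 itself went against its label, with 7.79, 9.13 and 8.96 on the log2 scale in Zeb2-KO replicates 1 to 3, against 6.58, 7.51 and 7.34 in WT replicates 1 to 3. The groups did not overlap, the difference was 1.48 (SE 0.40, limma adjusted p = 0.581), and the labels are therefore cited as labels throughout. The sources used here say neither which part of Zeb2 was deleted nor which part the probes read. Whether the probe set lies outside the deletion is therefore not known, and the labels could not be checked with it. The cause of the higher signal was not tested, and the direction of every difference below rests on the labels as given. Median intensities were 94.3 to 99.2 over the 6 arrays. The interquartile range (IQR) of log2 values was widest in Zeb2-KO replicate 2 (2.40) and narrowest in WT replicate 1 (1.59), which also had the lowest mean correlation with the other arrays (0.841, against 0.886 to 0.908 in the others). WT replicate 1 held the highest of the 6 values for 34.5% of all probe sets and for 33.3% of the 48 genes. It held the lowest value for 21.6% of all probe sets and for 14.6% of the 48 genes. The summed intensity of 3 Y-linked genes was 243 in Zeb2-KO replicate 1 and 106 in WT replicate 1, against 44.3 to 52.9 in the other 4 arrays. Summed markers of other blood cells also lay apart for some lists. Summed marker intensity was, for arrays labelled Zeb2-KO against WT, 707 to 1302 against 1361 to 2447 for B cells (7 of 8 markers measured, all 7 lower) and 2194 to 3010 against 2735 to 4520 for monocytes and dendritic cells (9 of 13 measured, 8 lower). It was 391 to 1373 against 294 to 351 for granulocytes (4 of 8 measured, 2 higher), 298 to 648 against 291 to 350 for T and NK cells (5 of 7, 2 higher), 2440 to 4668 against 671 to 1513 for megakaryocytes (5 of 6, 4 higher) and 2641 to 3042 against 743 to 1295 for erythroid cells (4 of 6, all 4 higher). The sums add linear intensities, so bright probe sets weigh most. Of the granulocyte markers, S100a9 read 10.16 on the log2 scale in Zeb2-KO replicate 1, and all 4 overlapped between groups. Car2, an erythroid marker, read 11.34, 11.22 and 11.08 in the arrays labelled Zeb2-KO, against 8.63, 9.94 and 9.91 in WT. Stem cell and gate markers summed to 2379 to 2939 against 1877 to 3320 (7 of 9 measured, 2 higher). This sum joins markers that went different ways. Slamf1 (difference 1.299) and Kit (0.53) were higher, and Cd48 (-1.02) and Procr (-0.45) lower, each without overlap between groups. The rest overlapped. Slamf1 read 5.76 in WT replicate 1, against 7.94 to 9.01 in the other arrays, and Kit was also lowest in WT replicate 1. No marker passed the adjusted test and none is listed at 0. The part of these markers in the results below was not tested, and fewer cells of a type and less RNA per cell cannot be told apart in such bulk samples.

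Across the whole list, as many interferon-inducible genes lay higher as lay lower in the arrays labelled Zeb2-KO than in WT. None of the 48 genes passed the adjusted test (limma, Benjamini-Hochberg over 14610 probe sets, adjusted p 0.581 to 0.994), where 0.0137% of all probe sets passed. With array weights, whose estimate did not converge in limma, 7 of the 48 genes passed, against 978 of all 14610 probe sets. By unadjusted p under 0.05 there were 4 genes (8.33%, against 7.02% of all probe sets). Of these, 1 was higher in the arrays labelled Zeb2-KO (2.08% of members, against 5.69% of all probe sets) and 3 were lower (6.25%, against 1.33%). The array values of the groups did not overlap for 1 gene that was higher, against 6.9% of all probe sets, and for 3 that were lower, against 6.26% of all probe sets. Differences were above 0 in 24 genes and below 0 in 24. Their median was 0.02 on the log2 scale, against -0.09 over all probe sets, of which 44.6% lay above 0. Leaving out Zeb2-KO replicate 2 gave a median of -0.13, and without both arrays high in Y-linked signal it was 0.11.

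**Figure D1:**
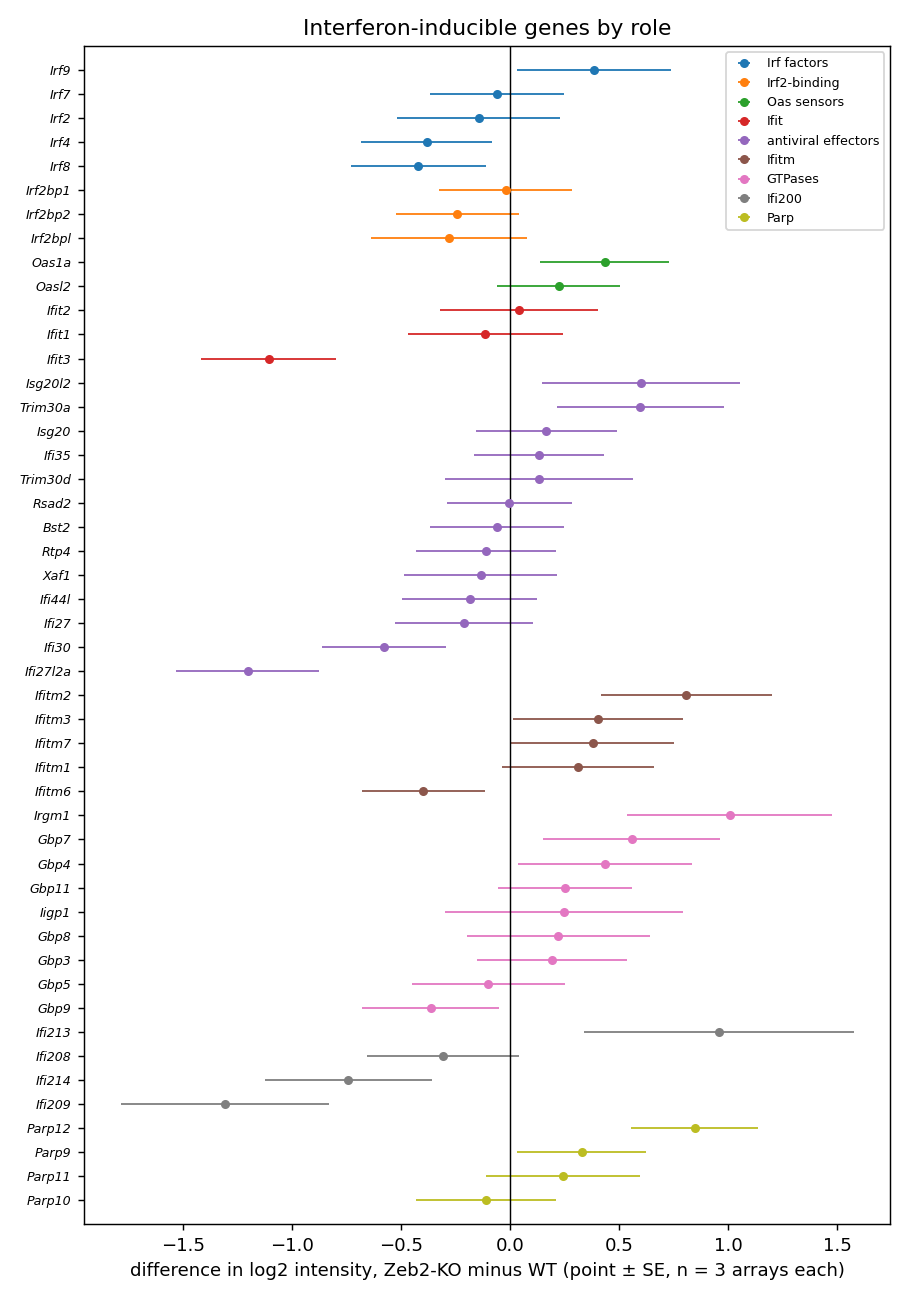
The horizontal axis is the difference in log2 intensity, arrays labelled Zeb2-KO minus WT, and each row is 1 of the 48 genes, coloured by role, with a point for the difference and a bar for ± SE (n = 3 arrays each). The genes run from Ifi209 at -1.31 to Irgm1 at 1.01, with 24 on either side of 0.

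**Figure D2:**
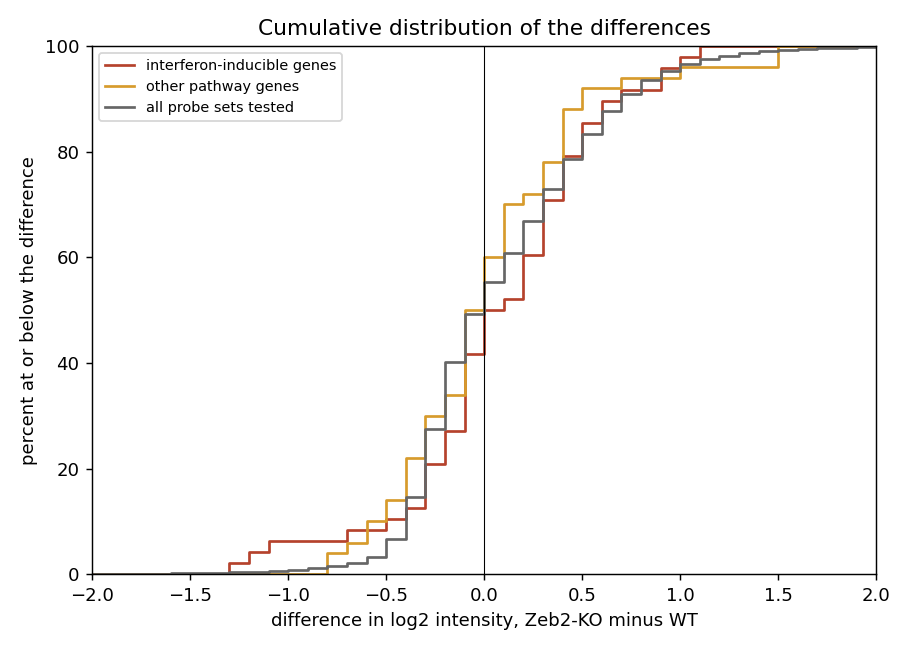
The horizontal axis is the difference in log2 intensity, arrays labelled Zeb2-KO minus WT, in steps of 0.1, and the vertical axis the percent of genes or probe sets at or below it, for the 48 interferon-inducible genes, 50 other pathway genes and all 14610 probe sets. At a difference of 0.1 the curves stand at 52.08% for the interferon-inducible genes, 70% for the other pathway genes and 60.88% for all probe sets, and at -1.1 at 6.25%, 0% and 0.62%.

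Of the regulators, 1 of the 5 Irf genes lay higher and 4 lay lower in the arrays labelled Zeb2-KO. Each of the 5 overlapped between groups. Irf7, the factor that amplifies interferon production and is itself strongly interferon-induced, read 5.77, 6.42 and 6.01 in the arrays labelled Zeb2-KO, against 6.50, 5.85 and 6.03 in WT. The groups overlapped, the difference was -0.06 (SE 0.31), and its 95% interval ran from -0.74 to 0.62. The Irf7 mean over the arrays (6.10) lay below the median of all probe sets (6.63). Irf9, the DNA-binding subunit of the complex on the ISRE, read 6.87, 6.85 and 7.62, against 6.15, 6.92 and 7.12 in WT, a difference of 0.39 (SE 0.35). It was the Irf gene above 0. Irf8, needed for monocyte and dendritic cell development, differed by -0.42 (SE 0.31), and Irf4, which acts in B cells and plasma cells, by -0.38 (SE 0.30). Both had their highest value in WT replicate 1, as did 34.5% of all probe sets. Summed B cell markers were lower in every array labelled Zeb2-KO (at most 1302) than in any WT array (at least 1361). Of the single B cell markers, Cd79a, Cd79b, Pax5 and Ebf1 overlapped between groups. The monocyte and dendritic cell sums overlapped (3010 in Zeb2-KO replicate 1, against 2735 in WT replicate 2) and were highest in WT replicate 1 (4520). The part of such cells in the Irf8 and Irf4 values was not tested. Irf2, a factor that restrains interferon responses and is known in mice to keep stem cells from being driven by interferon, read 9.46, 9.11 and 9.25, against 10.09, 8.61 and 9.55 in WT. Its difference of -0.15 (SE 0.38) lay within the WT spread, and became 0.19 without WT replicate 1. The median over the 5 Irf genes was -0.15, and 0.09 without WT replicate 1. The Irf2-binding proteins, which are corepressors, differed by -0.28 (Irf2bpl), -0.24 (Irf2bp2) and -0.02 (Irf2bp1).

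The Oas proteins sense double-stranded RNA, and the classical members make the messenger that turns on the ribonuclease RNase L. Oas1a read 7.17, 7.26 and 6.92 in the arrays labelled Zeb2-KO, against 7.09, 6.41 and 6.56 in WT, a difference of 0.43 (SE 0.30). Oasl2 differed by 0.22 (SE 0.28). Both lay above 0 and in both the groups overlapped.

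The 3 Ifit genes lie side by side on chromosome 19 and encode proteins that bind viral RNA, and Ifit3 was the one whose groups did not overlap. Ifit3, known in humans to stabilise IFIT1, read 5.06, 4.70 and 5.04 in the arrays labelled Zeb2-KO, against 6.38, 5.56 and 6.19 in WT. All arrays labelled Zeb2-KO lay below all WT arrays, at 4.93 ± 0.20 against 6.04 ± 0.43 (SD, n = 3 each). The difference was -1.11 (SE 0.31, 95% interval -1.79 to -0.42, limma adjusted p = 0.595), a level 2.16-fold lower that did not pass the test. Without the 2 arrays high in Y-linked signal it was -1.003. Ifit1, which binds RNA with an incompletely methylated cap, read 5.20, 5.71 and 5.74, against 5.47, 5.17 and 6.36 in WT, a difference of -0.12 (SE 0.36). Ifit2 read 5.57, 6.27 and 5.83, against 6.54, 5.67 and 5.34 in WT, a difference of 0.04 (SE 0.36). In these genes the groups overlapped, although Ifit1 carries a pair of ISRE matches as Ifit3 does in the promoters printed above. Whether the Ifit genes differed from each other in their differences was not tested. All 3 means of Ifit1, Ifit2 and Ifit3 lay below the array median of 6.63.

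Among the other antiviral effectors Ifi27l2a and Ifi30 were the genes without overlap. Ifi27l2a, a small hydrophobic protein that type I interferon induces strongly, read 6.07, 5.88 and 6.18 in the arrays labelled Zeb2-KO, against 7.88, 6.96 and 6.89 in WT. Every array labelled Zeb2-KO was below every WT array, at 6.04 ± 0.15 against 7.25 ± 0.55 (SD, n = 3 each). The difference was -1.21 (SE 0.33, 95% interval -1.93 to -0.48, limma adjusted p = 0.581), a level 2.31-fold lower that did not pass the test. WT replicate 1 held the highest value, and without it and Zeb2-KO replicate 1 together the difference was -0.90. Ifi27, its neighbour on chromosome 12, read 8.73, 8.74 and 8.58, against 8.33, 9.02 and 9.33 in WT, with overlap. Ifi30, a lysosomal thiol reductase of antigen processing that is abundant in antigen-presenting cells, read 5.79, 5.88 and 5.85, against 6.44, 6.72 and 6.10 in WT. Its groups did not overlap, and the difference was -0.58 (SE 0.28, limma adjusted p = 0.673). Of the monocyte and dendritic cell markers given above, 8 of 9 were lower, but only Cd74, H2-Eb1 and Ctss without overlap between groups. The part of such cells in the Ifi30 values was not tested.

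In the remaining effectors the groups overlapped. Rsad2 (viperin), a radical SAM enzyme that blocks viral polymerases and one of the most inducible interferon targets, read 5.45, 5.19 and 5.17 in the arrays labelled Zeb2-KO, against 5.53, 4.94 and 5.35 in WT. The group means were 5.27 ± 0.16 and 5.27 ± 0.30 (SD, n = 3 each), with a 95% interval of the difference from -0.64 to 0.63. Both means lay below the median of all probe sets (6.63). Trim30a, a RING protein that dampens Toll-like receptor signalling, read 9.22, 9.84 and 9.75, against 8.18, 9.34 and 9.50 in WT, a difference of 0.60 (SE 0.38), with the lowest value in WT replicate 1. Isg20l2, a nuclear exonuclease related to Isg20, read 4.85, 6.45 and 6.11, against 5.71, 5.43 and 4.48 in WT, also a difference of 0.60 (SE 0.45). Over the 13 effectors 5 differences lay above 0, and the median was -0.06.

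**Figure D3:**
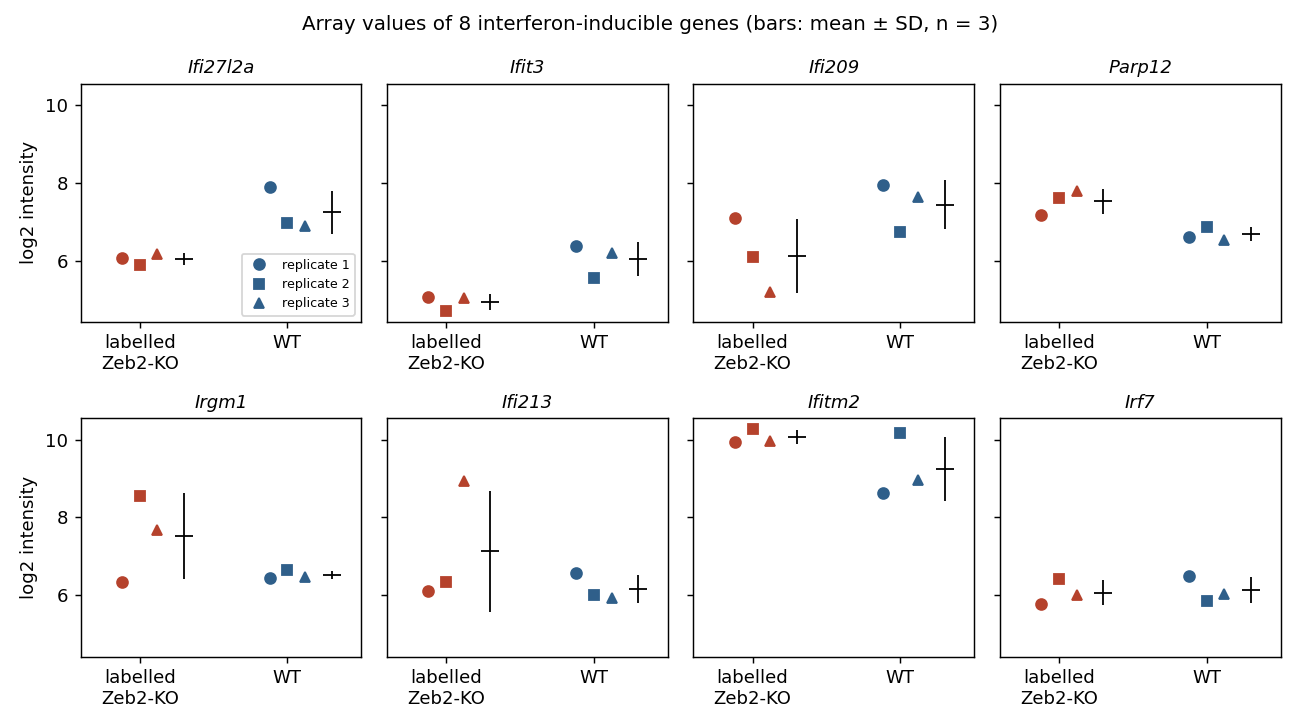
Each panel is 1 of 8 genes, with the log2 intensity of each array on the vertical axis, the arrays labelled Zeb2-KO on the left and WT on the right (3 each, symbols by replicate number), and the mean ± SD beside the points. The groups do not overlap for Ifi27l2a, Ifit3 and Parp12, whereas Irgm1 and Ifi213 are spread widely among the arrays labelled Zeb2-KO.

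The Ifitm proteins sit in membranes and block the entry of viruses, and 4 of the 5 measured lay higher in the arrays labelled Zeb2-KO without passing the test. Ifitm2 read 9.94, 10.27 and 9.96, against 8.62, 10.17 and 8.95 in WT, a difference of 0.81 (SE 0.39, limma adjusted p = 0.673). Its other probe sets gave 0.81 and 0.58. Ifitm3, the main antiviral member, read 10.82, 11.40 and 10.98, against 9.85, 11.37 and 10.77 in WT, a difference of 0.40 (SE 0.39). In Ifitm1, Ifitm2 and Ifitm3 the lowest of the 6 arrays was WT replicate 1, as it was for 21.6% of all probe sets. Ifitm7 differed by 0.38 (SE 0.37), and Ifitm6 by -0.40 (SE 0.28). The median over the 5 genes was 0.38. It was -0.0028 without WT replicate 1, with 2 of 5 above 0, and -0.14 with the IQR of the arrays as a covariate.

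The interferon-inducible GTPases attack the vacuoles of intracellular microbes. Within each group their values stood highest in replicate 2 by the median, most of all in Zeb2-KO replicate 2. Irgm1, a regulator of autophagy that is known in mice to be needed for normal stem cell function under interferon gamma, read 6.35, 8.55 and 7.69 in the arrays labelled Zeb2-KO, against 6.43, 6.65 and 6.48 in WT. Zeb2-KO replicates 2 and 3 stood above all WT arrays and replicate 1 stood below them. The difference of 1.01 (SE 0.47, limma adjusted p = 0.673) was the highest of the 48 genes, and it was 0.50 without Zeb2-KO replicate 2 and 1.60 without Zeb2-KO replicate 1. Gbp7 read 7.74, 9.05 and 7.67, against 7.43, 8.08 and 7.29 in WT, a difference of 0.56 (SE 0.41). Gbp4 read 5.24, 6.90 and 5.89, against 5.47, 5.82 and 5.44 in WT, a difference of 0.43 (SE 0.40). In both, Zeb2-KO replicate 2 held the highest value. Iigp1, a GTPase that coats microbial vacuoles, read 5.67, 8.13 and 6.54, against 5.90, 6.99 and 6.71 in WT, a difference of 0.25 (SE 0.55) that became -0.43 without Zeb2-KO replicate 2. Gbp9, 1 of 2 GTPases below 0 and the one whose highest value was not in Zeb2-KO replicate 2, read 6.96, 7.21 and 6.62, against 7.23, 6.94 and 7.72 in WT, a difference of -0.36 (SE 0.31).

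Zeb2-KO replicate 2 held the highest of the 6 values for 8 of the 9 GTPases (88.9%). It did so for 18 of the 48 interferon-inducible genes (37.5%) and for 23.1% of all probe sets, and it held the lowest value for 32.5% of all probe sets. The median deviation of the GTPases from their own means was 0.86 in this array, against -0.32 and -0.21 in Zeb2-KO replicates 1 and 3. In WT it was 0.20 in replicate 2, against -0.33 and -0.36 in replicates 1 and 3. Without Zeb2-KO replicate 2, the median difference of the GTPases was -0.11, with 3 of 9 above 0, against 0.25 with 7 of 9 above 0 over all arrays. Without WT replicate 2 it was 0.47, with 8 of 9 above 0. With the IQR of the arrays as a covariate the median was -0.26, with 2 of 9 above 0. Zeb2-KO replicate 2 had the widest IQR (2.40) and the highest sum of T and NK cell markers (648, against 291 to 421 in the other 5 arrays). Of these markers Nkg7 and Cd3g were highest there, at 8.95 and 5.22 on the log2 scale, whereas Cd3e and Il2rb were lowest there of all 6 arrays, at 6.03 and 4.97. The part of the IQR or of these markers in the GTPase values was not tested.

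**Figure D4:**
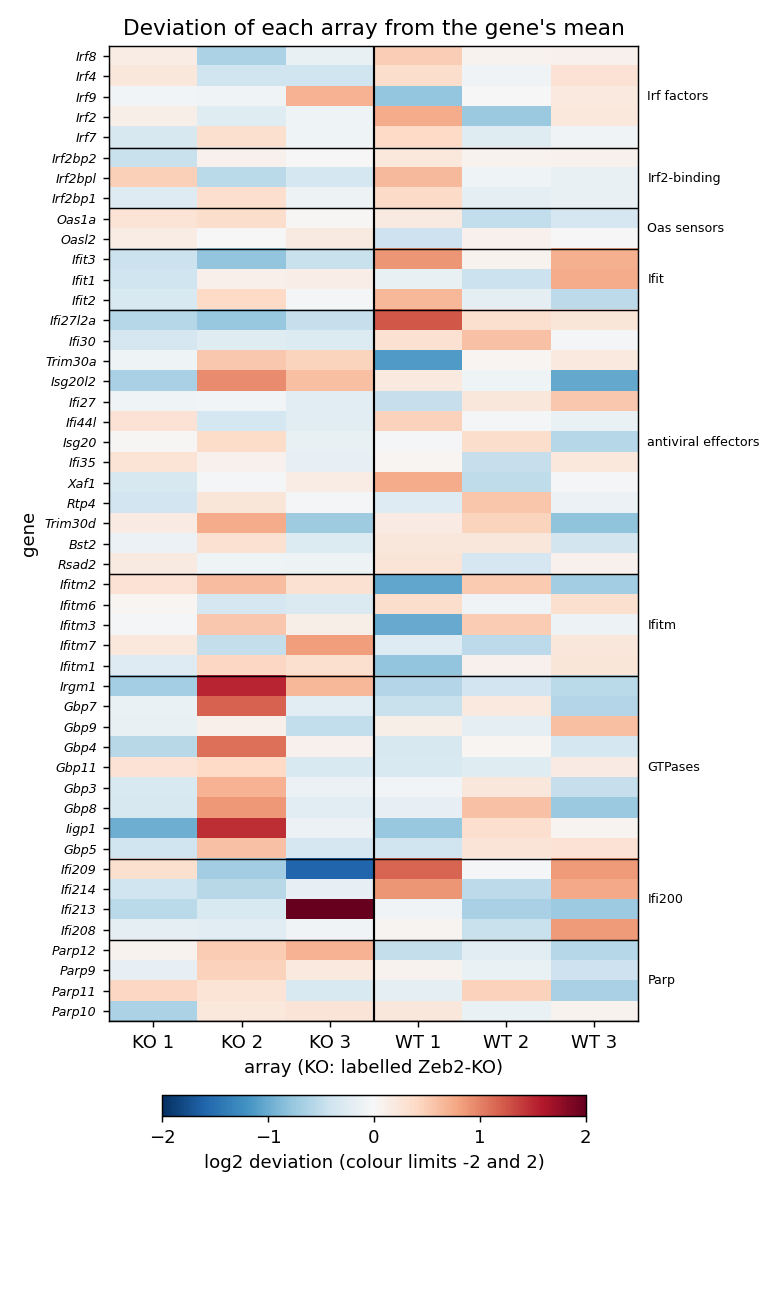
Each row is 1 of the 48 genes, grouped by role, and each column 1 array (KO stands for the arrays labelled Zeb2-KO), with the colour giving the log2 deviation from the gene's mean over the 6 arrays. The block of high values in Zeb2-KO replicate 2 covers 8 of the 9 GTPases, and Ifi213 is high in Zeb2-KO replicate 3 alone.

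The Ifi200 (PYHIN) genes, which encode DNA-binding proteins and lie together on chromosome 1, went different ways. Ifi209 read 7.09, 6.09 and 5.18 in the arrays labelled Zeb2-KO, against 7.94, 6.73 and 7.63 in WT. Its difference of -1.31 (SE 0.48, 95% interval -2.36 to -0.25, limma adjusted p = 0.657) was the lowest of the 48 genes, but Zeb2-KO replicate 1 lay above WT replicate 2. Ifi213 read 6.11, 6.35 and 8.92, against 6.58, 6.01 and 5.92 in WT. Its difference of 0.96 (SE 0.62) came from Zeb2-KO replicate 3 and was 0.06 without it. That array held the lowest Ifi209 value and the highest Ifi213 value. Ifi214 read 5.09, 4.92 and 5.32, against 6.37, 4.96 and 6.23 in WT, a difference of -0.74 (SE 0.38). The groups overlapped by way of WT replicate 2. Ifi208 differed by -0.31 (SE 0.35), and the median over the 4 genes was -0.53.

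Of the Parp genes, which encode ADP-ribosyltransferases, Parp12 was the gene without overlap. Parp12, a zinc-finger enzyme that restricts the replication of RNA viruses, read 7.17, 7.60 and 7.79 in the arrays labelled Zeb2-KO, against 6.61, 6.87 and 6.53 in WT. All arrays labelled Zeb2-KO lay above all WT arrays, at 7.52 ± 0.32 against 6.67 ± 0.18 (SD, n = 3 each). The difference was 0.85 (SE 0.29, 95% interval 0.20 to 1.49, limma adjusted p = 0.656), a level 1.80-fold higher that did not pass the test. Without the 2 arrays high in Y-linked signal it was 0.99. Parp9, which acts with the ubiquitin ligase Dtx3l, differed by 0.33 (SE 0.30), Parp11 by 0.24 (SE 0.35) and Parp10 by -0.11 (SE 0.32), and all 3 overlapped between groups. The median over the 4 genes was 0.29.

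Genes with and without ISRE letters spread over much the same range of differences. The 18 genes with a match had differences from -1.11 (Ifit3) to 1.01 (Irgm1), with 10 above 0, 8 below and a median of 0.16. The 20 genes with a window and no match ran from -1.31 (Ifi209) to 0.85 (Parp12), with 9 above 0, 11 below and a median of -0.04. By unadjusted p under 0.05 there was 1 gene with a match and 2 without. The 10 genes with no window in the table include Ifi27l2a. These are descriptions of 2 lists of genes that share arrays, and no test was made between them.

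**Figure D5:**
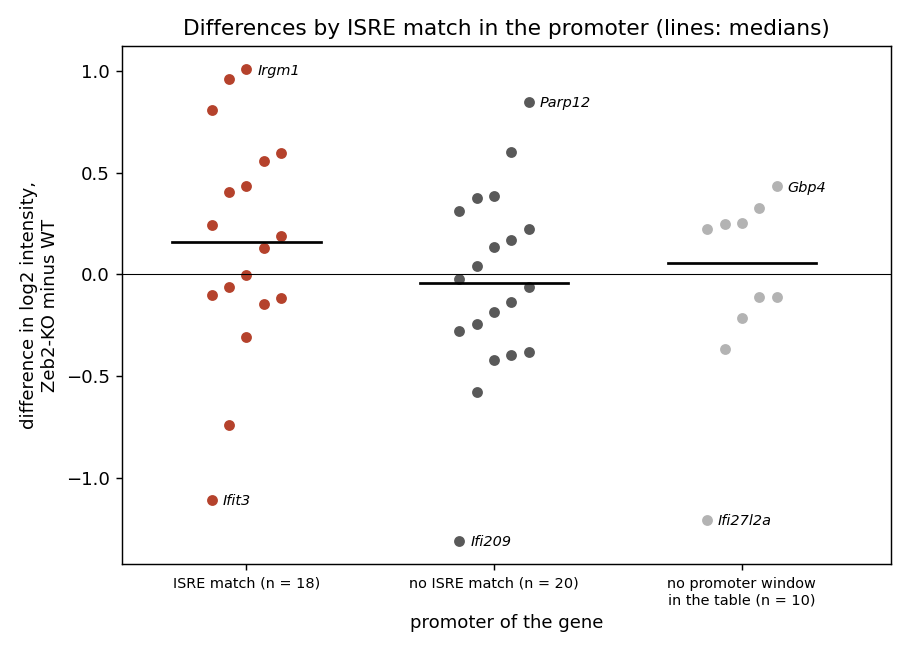
The vertical axis is the difference in log2 intensity, arrays labelled Zeb2-KO minus WT, and each point is 1 gene, placed by whether its promoter window holds an ISRE match (n = 18), holds none (n = 20) or is not in the table (n = 10), with a line at each median. Genes with a match lie on both sides of 0, from Ifit3 at -1.11 to Irgm1 at 1.01.

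Receptors, kinases, sensors and further inducible genes were described beside them. Of 91 listed genes outside the name rule 50 were measured, none passed the adjusted test, 20 lay above 0 and 30 below, and the median was -0.09. By unadjusted p under 0.05 there were 8 (16%, against 7.02% of all probe sets), with 3 higher (6%, against 5.69%) and 5 lower (10%, against 1.33%). The groups did not overlap for 3 of the 50 that were higher, against 6.9% of all probe sets, and for 6 of the 50 that were lower, against 6.26%. Among the 13 interferons, receptors and Jak-Stat genes, the receptor chain Ifnar2 read 7.42, 8.47 and 8.84 in the arrays labelled Zeb2-KO, against 8.22, 9.01 and 7.91 in WT, a difference of -0.14 (SE 0.42). Jak2, the kinase of interferon gamma and cytokine receptors, read 7.17, 8.81 and 7.84, against 6.77, 7.34 and 6.92 in WT, a difference of 0.93 (SE 0.40). Ifngr2, a chain of the interferon gamma receptor, read 6.40, 6.38 and 6.35, against 7.39, 6.38 and 8.00 in WT, a difference of -0.88 (SE 0.39). Ptpn6, a phosphatase that restrains Jak-Stat signalling, differed by -0.65 (SE 0.27) without overlap between groups.

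Among the 10 sensors and adaptors, Eif2ak2 (PKR), the kinase that halts translation on binding double-stranded RNA, read 6.98, 8.05 and 7.93 in the arrays labelled Zeb2-KO, against 5.22, 7.07 and 6.35 in WT. Its difference of 1.44 (SE 0.47, limma adjusted p = 0.620) was the highest of the pathway genes, yet Zeb2-KO replicate 1 lay below WT replicate 2, and with the IQR as a covariate the difference was 0.57. Among the 27 other inducible genes, 8 lay above 0 and 19 below. Phf11d read 7.57, 6.76 and 5.89, against 5.46, 5.24 and 5.31 in WT, without overlap, a difference of 1.41 (SE 0.40, limma adjusted p = 0.600). Samd9l, an antiviral growth suppressor of blood cells, read 8.76, 8.95 and 9.04, against 9.53, 9.57 and 10.11 in WT, without overlap, a difference of -0.82 (SE 0.29, adjusted p = 0.656 by limma). Slfn5 of the Schlafen family differed by -0.75 (SE 0.31), and Sp100, a component of nuclear bodies, by -0.66 (SE 0.29), both without overlap between groups.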

How the data were processed

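Total RNA of sorted LKS-Slam cells was amplified, biotin-labelled and hybridised to Affymetrix mouse arrays, per the labels' protocols. The deposited values are intensities on a linear scale. The submitters' processing notes name RMA (background correction, normalization and summary into probe sets), its version and software not given in the sources at hand. Since RMA commonly ends in log2 values, log2 was taken here. No detection call was used, and 3 arrays a group limit the precision.

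Of 20220 probe sets, 5610 with identifiers below the lowest annotated one were treated as controls and left out, and 14610 were tested, 11229 of them with 1 symbol, 766 with several and 2615 with none. Titles and genotypes in the labels gave the groups. The arrays labelled Zeb2-KO were compared with WT in R 4.3.3 with limma 3.58.1, by lmFit and an eBayes step without trend or robust prior (residual df 4, prior df 6.87). P-values were adjusted by Benjamini-Hochberg over the 14610, at a threshold of 0.05. A p from limma is given for each probe set, intervals are at 95%, and differences are log2 values, Zeb2-KO minus WT. A gene with several probe sets was read by the one with the highest mean, 46 of the 48 having a single one. Another 6 probe sets with several symbols that match the name rule were not used. Apart from the marker sums and the placing of means against the median of all probe sets, levels of different probe sets were not compared.

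Genes were named by rule: up to 4 per role group by smallest p, the 5 highest and 5 lowest differences, and fixed regulators where measured. Rsad2, Iigp1, Ifitm1, Ifi27 and the pathway genes other than Ifnar2 were chosen after their values were seen, and the members and lists were chosen with earlier results of these data known. Alternatives were quantile normalization, median centring, dim probe sets left out, trended and robust priors, array weights, a block for the replicate number, the IQR of each array as a covariate, means over probe sets, controls included, the Irf2-binding genes left out, and each array left out in turn. Leaving out both arrays whose summed Y-linked signal was over 1.5 times the median array was added after seeing the data. The fit and the motif search were tested on simulated data.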

Additional observations from a re-analysis of the deposited data

How the results depend on the processing

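The count of interferon-inducible genes past the adjusted test stayed at 0 in the alternatives other than array weights, where limma reported no convergence and weights ran from 0.379 to 8.22. With array weights 7 of the 48 members and 3 of the 50 pathway genes passed, against 978 of all 14610 probe sets. By unadjusted p under 0.05 there were 16 members (8 higher, 8 lower) and 15 pathway genes. Of all probe sets 32.8% had such a p (17.2% higher, 15.6% lower). Zeb2 passed at 1.67 with these weights (limma adjusted p = 0.0181). Outside array weights the lowest adjusted p of a named gene was 0.148 (Ifit3 without WT replicate 2, limma). With the replicate block 8 members had p under 0.05 (4 higher), against 17.8% of all probe sets. Deviations of same-numbered arrays from their group means correlated at 0.36, 0.41 and 0.05, each array best with its own number. Zeb2-KO replicate 3 did so by little, at 0.05 with WT replicate 3 against 0.03 with WT replicate 2. Deviations from a mean of 3 arrays depend on each other, so these correlations are not separate evidence. The labels do not say what a replicate number marks, and a pairing of the arrays was not tested. The block changed no call of a member or named gene at the adjusted threshold, and over all probe sets it left 0 past it, against 2 without it. The dim filter left 28 members, 1 without overlap and lower, and a median of 0.22, against 0.18 over all probe sets that it kept. It left 35 pathway genes, 2 of them at p under 0.05 (7.89% of all probe sets kept), and of all 50 there were 5 with a trended prior (6.73%) and 5 with the IQR covariate (5.13%). The IQR covariate gave 5 lower members at p under 0.05, against 2.63% of all probe sets, and means over probe sets 2 higher, against 5.85%. Leaving out both arrays high in Y-linked signal gave 3 higher members at p under 0.05, against 6.44% of all probe sets, and 12 higher and 10 lower without overlap among 4 arrays, against 19.6% and 30.4%. Leaving out each array in turn gave 2 to 6 members at p under 0.05 (0 to 3 higher, 2 to 4 lower), against 3.68% to 11.4% of all probe sets (2.86% to 9.14% higher, 0.815% to 2.92% lower). It gave 1 to 7 higher and 3 to 10 lower without overlap, against 8.34% to 16.8% and 7.93% to 28.4%, and medians from -0.13 to 0.11. For pathway genes it gave 3 to 8 at p under 0.05 and medians from -0.18 to 0.051. The settings that left out arrays or dim probe sets also used fewer arrays or genes. The cause of these shifts was not tested.

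Of 44 named genes 15 changed sign in at least 1 alternative, 41 times in 730. With the IQR covariate Irf2 was 0.39, Irf2bpl 0.26, Rsad2 0.25, Ifitm3 -0.21, Gbp7 -0.10, Gbp4 -0.25 and Iigp1 -0.91. With array weights Iigp1 was -0.023, Parp10 0.15 and Ifnar2 0.58, and with quantile normalization Rsad2 was 0.15. With both arrays high in Y-linked signal removed, Irf2 was 0.10, Irf7 0.27, Irf2bp1 0.29, Rsad2 0.033, Parp10 0.27 and Ifnar2 0.19. Leaving out each array in turn gave -0.55 to 0.19 for Irf2, -0.24 to 0.12 for Irf7, -0.20 to 0.16 for Irf2bp1, -0.36 to 0.23 for Ifit1, -0.21 to 0.38 for Ifit2, -0.17 to 0.12 for Rsad2, -0.0028 to 0.76 for Ifitm3, -0.011 to 0.82 for Gbp4, -0.43 to 0.80 for Iigp1, -0.61 to 0.041 for Ifi208, -0.018 to 0.53 for Parp11, -0.26 to 0.18 for Parp10 and -0.43 to 0.27 for Ifnar2. With 3 arrays in each group standard errors of members ran from 0.28 (Oasl2) to 0.62 (Ifi213), and differences of -1.21 and -1.31 did not pass the adjusted test.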
